A study of Homo sapiens with 36 samples.

Results

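DNTT, CD3D, GZMB, KLRD1, NCAM1, THY1 and ANXA1 are genes best known from lymphoid precursors, T cells, natural killer (NK) cells and other cells outside the mature B lineage. They were taken by name from a panel of 2549 genes, chosen by their measured level, which in single cell lines was far above that of the median line. All 7 were found in the panel. These levels are therefore given as a description and carry no test.

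RNA was measured by targeted RNA-Seq, which counts reads on a fixed set of genes, in lysates of 36 established human lines of lymphoma. Every line is represented by a single library, and the labels give names of lines but no grouping, genotype or treatment. No value therefore has an error between replicates, and the intervals below are exact 95% Poisson intervals, which cover counting error only. Library totals ran from 6422917 counts in HAIR_M to 13451527 in SUDHL6. Levels are CPM, the share of a library's counts on a common scale, after scaling by TMM factors. These factors adjust a library's total for its composition. Apart from sums over marker lists, CPM of different genes were not compared with each other, since the genes are read by different targets. Such a sum adds different targets and can rest mostly on a single gene, so sums are compared between lines only. Listed genes counted above or below their median in a line, or at 100 CPM or more, lack the share of all panel genes beside them. Nothing is read from such counts. In bulk lysates, more cells with a gene and more RNA per cell cannot be told apart.

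A mature B cell has left the precursor stage, in which DNTT helps to diversify antigen receptor genes while they are being cut and joined. T and NK cells carry their own surface receptors and a cytotoxic granule machinery that B cells mostly lack. Lymphoma lines keep many features of the B cell they derive from, and B-lineage genes are set beside the 7 to describe that background.

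The sequence upstream of a gene is where its transcription starts to be controlled, and promoters differ widely in how many CG pairs (CpG), the sites of DNA methylation, they hold. RefSeq sequences of GRCh38.p14 were found for DNTT, CD3D, GZMB and ANXA1. The 250 bases upstream of the RefSeq start are shown for the genes with the largest excess over the median line, DNTT and ANXA1, and for GZMB beside its neighbour GZMH, whose levels followed it most closely. Sequences run 5′ to 3′ on the strand of the gene, and capitals mark CpG. The RefSeq start lies downstream of the GENCODE gene start used below, so 38 bases of the DNTT window, 77 of GZMB and 108 of ANXA1 fall inside the GENCODE gene. The windows lie at chr10:96304184-96304433 (plus strand, DNTT), chr9:73151615-73151864 (plus strand, ANXA1), chr14:24634191-24634440 (minus strand, GZMB) and chr14:24609686-24609935 (minus strand, GZMH).
DNTT: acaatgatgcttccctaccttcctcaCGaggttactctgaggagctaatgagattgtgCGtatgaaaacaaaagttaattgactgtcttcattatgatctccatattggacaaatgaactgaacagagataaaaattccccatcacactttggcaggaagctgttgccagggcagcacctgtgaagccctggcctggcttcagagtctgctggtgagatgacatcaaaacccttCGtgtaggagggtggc
ANXA1: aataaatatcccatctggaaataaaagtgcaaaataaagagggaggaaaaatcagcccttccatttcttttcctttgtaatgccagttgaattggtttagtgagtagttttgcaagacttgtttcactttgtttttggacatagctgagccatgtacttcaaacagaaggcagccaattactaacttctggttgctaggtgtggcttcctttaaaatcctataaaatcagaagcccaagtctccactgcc
GZMB: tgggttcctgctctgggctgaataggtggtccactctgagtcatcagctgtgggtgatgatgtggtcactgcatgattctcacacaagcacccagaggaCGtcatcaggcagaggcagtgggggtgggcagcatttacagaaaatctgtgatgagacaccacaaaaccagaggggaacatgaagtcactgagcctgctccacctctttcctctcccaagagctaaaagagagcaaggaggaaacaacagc
GZMH: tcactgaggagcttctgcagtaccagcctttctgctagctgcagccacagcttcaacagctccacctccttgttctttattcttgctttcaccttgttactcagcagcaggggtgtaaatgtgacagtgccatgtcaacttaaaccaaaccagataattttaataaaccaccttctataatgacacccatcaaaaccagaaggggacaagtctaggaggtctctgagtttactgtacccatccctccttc

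The windows held 3 CpG in DNTT, 4 in CD3D, 1 in GZMB and 0 in ANXA1, with 0 in GZMH. Their median in the 4 genes was 2. The median was 18 over 2992 promoter entries of panel genes and 11 over all 35116 entries. Those 2992 entries came from 1933 panel genes, so genes with several entries weighed more there. Each of the 4 genes has 1 window, and KLRD1, NCAM1 and THY1 have no value. The genes and the entries were thus not counted alike, and nothing is read from these medians or the shares that follow. A window with as few CpG as that of ANXA1 was found in 2.81% of the panel entries, and one with as few as that of CD3D in 20.8%. The letters TATAAA, searched on both strands, occurred in the ANXA1 window only, against 10.7% of all promoters of the same length. The GZMB and GZMH windows were identical at 38.1% of aligned positions.

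A gene was counted as standing out in a line where its level was at least 16-fold over the median line and at least 100 CPM. By this measure 6 of the 7 genes stood out in at least 1 line, beside 10.4% of the 2549 panel genes, and nothing is read from this share because the genes were chosen for it. KLRD1 did not reach it, at 6.47-fold over its median. The 11 cases fell in 10 lines, and 26 lines had none. SUDHL16 was the only line with 2, NCAM1 and ANXA1. The fold limit alone was met by 13.3% of panel genes and the limit of 100 CPM by 80.1%, and by 6 and 7 of the 7 genes. The excess of the highest line over the median line, log2((CPM + 0.5)/(median CPM + 0.5)), was 11.58 for DNTT, 10.73 for ANXA1, 5.43 for THY1, 5.09 for NCAM1, 4.67 for CD3D, 4.42 for GZMB and 2.67 for KLRD1. Its median over all panel genes was 2.37.

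**Figure D1:**
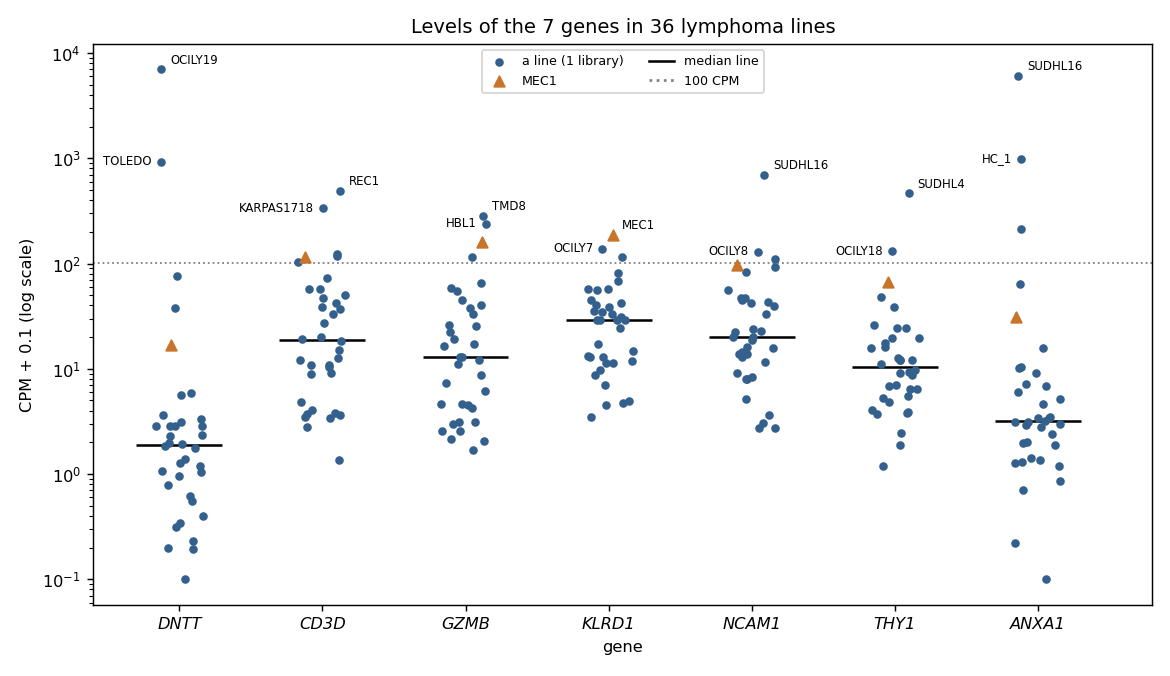
Level of each gene in the 36 lines, as CPM + 0.1 on a log axis, with 1 point per line and library, the median line as a bar and MEC1 as a triangle. DNTT and ANXA1 have 2 and 3 lines above 100 CPM and most lines below 10 CPM, whereas the other 5 genes spread without a gap over the lower range.

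DNTT encodes terminal deoxynucleotidyl transferase, which adds bases without a template at the joints of antigen receptor genes in immature lymphocytes (10:96304396-96338564 in GENCODE release 29). OCILY19 had 6971 CPM (interval 6915 to 7027) from 59453 counts, which was 0.563% of its library. TOLEDO followed with 931 CPM, OCILY18 with 75.5 CPM and JEKO1 with 37.9 CPM, each apart from the next beyond counting error. In OCILY19 26 panel genes stood out (1.02%), DNTT among them. The median line had 1.78 CPM, 31 lines were under 10 CPM and VL51 had 0 counts, which allows up to 0.439 CPM. High DNTT was thus held by 2 lines, with an intermediate level in OCILY18 and JEKO1. MEC1, in the fifth place at 16.8 CPM, did not exceed the highest control target of its library, 19.3 CPM.

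The other genes of the precursor stage shared these lines in part. RAG1, an enzyme that cuts antigen receptor genes, had 5256 CPM in OCILY8, 4858 CPM in OCILY19, 1120 CPM in OCILY18, 1049 CPM in TOLEDO and 343 CPM in JEKO1, against a median of 78.2 CPM. The 4 lines highest in DNTT were therefore all among the 5 highest in RAG1, and the exception, OCILY8, was at the DNTT median. CD34 and FLT3, a surface marker and a growth factor receptor of early blood cells, and the transcription factor ERG were highest in OCILY19, at 82.8, 327 and 362 CPM against medians of 0, 9.48 and 15.4 CPM. In TOLEDO and OCILY18 those 3 genes lay within the range of the other lines. IL7R, the receptor for a growth factor of early lymphocytes, was highest in OCILY8 at 2569 CPM, and OCILY19 had 111 CPM. Of the 6 listed precursor genes other than DNTT, 4 stood out in a line by the limits above.

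**Figure D2:**
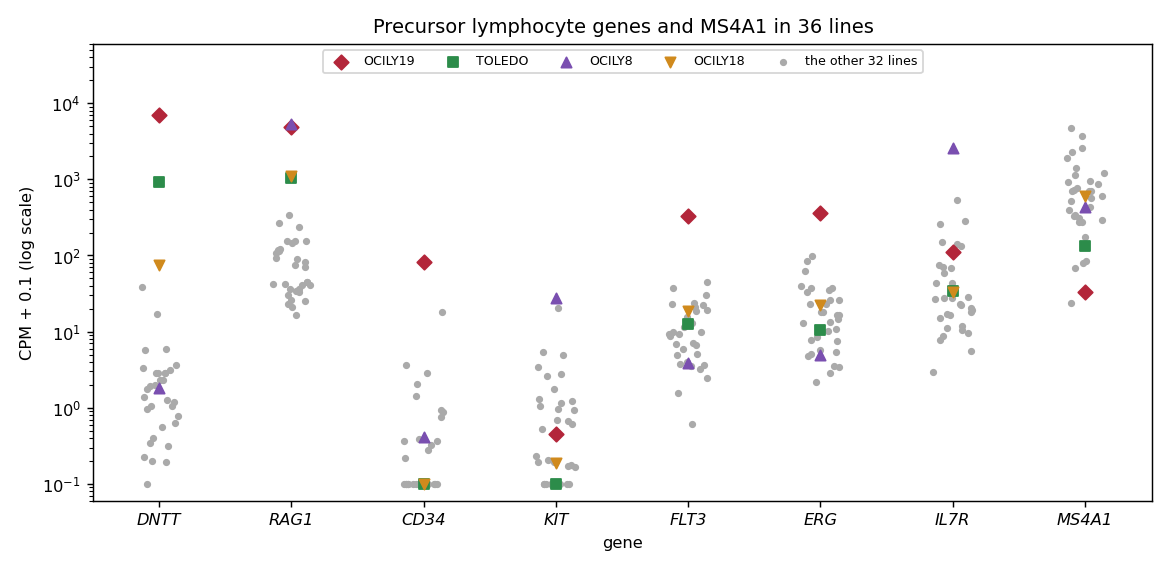
Precursor genes and MS4A1 in the 36 lines, as CPM + 0.1 on a log axis, with the lines highest in DNTT or RAG1 marked. OCILY19 is the top point for DNTT, CD34, FLT3 and ERG and close to the bottom for MS4A1, while OCILY8 matches it in RAG1 and leads in IL7R.

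The genes that join the cut ends showed no common direction in the lines highest in DNTT. XRCC4, a ligase partner, ran from 37.3 to 223 CPM over the lines and was at 85.8 CPM in OCILY19, near its median of 106 CPM. LIG4, the ligase, was at 337 CPM in OCILY19 against a median of 349 CPM. POLL, a related polymerase, was at 92.4 CPM in OCILY19 against 79.1 CPM. XRCC5 and XRCC6 encode the subunits of Ku, the protein that binds the ends. XRCC5 was at 91.5 CPM in OCILY19, rank 3, and 82.3 CPM in TOLEDO, rank 7 (median 55.6). XRCC6 was at 6.80 CPM in OCILY19, the lowest of all lines, and 30.4 CPM in TOLEDO (median 21.9). In TOLEDO, POLL (38.8 CPM) and LIG4 (182 CPM) were below their medians and XRCC4 (142 CPM) above it. The genes most like DNTT over the 36 lines, by Pearson r of log2 CPM, were ENG (0.60), CDK9 (0.59) and RAG1 (0.58). The Spearman rho of RAG1 was 0.10, so its likeness rested on the few high lines.

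Of 6 B-cell identity genes, 3 were above their median in OCILY19. PAX5, a B-lineage transcription factor, was at 361 CPM there against a median of 200 CPM, and CD79A, part of the B-cell receptor, at 256 CPM against 619 CPM. MS4A1, which encodes the mature B-cell antigen CD20, was at 32.6 CPM, the second lowest level, against a median of 580 CPM. DNTT was the gene with the largest excess among those highest in OCILY19, followed by the endothelial receptor gene ENG (2869 CPM, median 4.18). T cell markers summed to 101 CPM in OCILY19, the lowest of all lines.

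CD3D encodes the delta chain of CD3, the signalling complex of the T-cell receptor (11:118338954-118342744). REC1 had 490 CPM, KARPAS1718 333 CPM, OCILY7 124 CPM, U2932 118 CPM, MEC1 115 CPM and SUDHL10 104 CPM. The median line had 18.7 CPM and SUDHL4 the lowest level, 1.25 CPM. REC1 and KARPAS1718 were apart from all other lines, and the intervals of OCILY7, U2932 and MEC1 overlapped. CD3E, CD3G and CD247, the other chains of the complex, were not analysed here.

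The other T cell markers differed between the lines highest in CD3D. The 12 other measured markers summed to 299 CPM in REC1, rank 25 of 36, and to 596 CPM in KARPAS1718, rank 9, against a median of 376 CPM. None of the 12 was at 0 in either line, and 4 of them were above their median in REC1 and 7 in KARPAS1718. The share of all panel genes above their median in these lines is not given here. In REC1 the adhesion receptor CD2 was at 9.73 CPM (median 10.8), the co-receptor CD4 at 4.06 CPM (median 6.65), CD8A at 11.0 CPM (median 20.6) and the adaptor LAT at 38.3 CPM (median 55.4). The 4 above their median in REC1 were GATA3 (23.6 CPM, median 6.22), TBX21 (20.4 CPM, median 11.6), FOXP3 (3.34 CPM, median 1.80) and TCF7 (141 CPM, median 89.3), all transcription factor genes. In KARPAS1718 the surface receptor genes CD5 (59.3 CPM, median 10.8) and CD8A (84.4 CPM) both had rank 3 of 36, and CD4 (32.3 CPM) had rank 5. TCF7 was at 303 CPM in KARPAS1718, rank 6, while GATA3 (2.19 CPM) and CTLA4 (1.23 CPM, median 10.8) were among the lowest. TCF7 was highest in FARAGE at 2981 CPM. Over all lines, 3 of the 12 stood out in a line, which were TCF7, the surface receptor gene CD5 (211 CPM in MINO) and TBX21, a transcription factor gene (296 CPM in JVM2). In REC1 the B-lineage gene PAX5 was at 646 CPM against 200 CPM, and CD74, the chaperone of class II molecules, at 5814 CPM against a median of 22904 CPM. Only 4 genes of the panel stood out in REC1 (0.157%).

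GZMB encodes granzyme B, a protease of cytotoxic granules that T and NK cells release into target cells (14:24630954-24634267). TMD8 had 284 CPM (interval 275 to 293), HBL1 239 CPM, MEC1 161 CPM and SUDHL10 116 CPM. The median line had 12.8 CPM and SUDHL4 the lowest, 1.59 CPM. These 4 lines were each separable from the next, and the remaining 32 ran on below 100 CPM. Perforin (PRF1), which opens the way for granzymes, was at 38.9 CPM in TMD8 and 350 CPM in HBL1, against a median of 29.6 CPM, and was highest in MEC1 at 924 CPM. GZMA, a granzyme of another specificity, was highest in OCILY19 at 565 CPM, a line with 3.05 CPM of GZMB. In TMD8, GZMA was at 60.8 CPM against a median of 23.0 CPM. In TMD8 17 panel genes stood out (0.667%).

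GZMH, a granzyme encoded 21255 bases from GZMB, was the gene most like it over the 36 lines (r 0.92, rho 0.92, r 0.94 without TMD8). It had 115 CPM in HBL1, 102 CPM in MEC1 and 30.6 CPM in TMD8, where it ranked ninth, against a median of 13.8 CPM. TMD8, the highest line in GZMB, thus stood off the common trend. The longest coding transcripts of both genes were identical at 70.7% of aligned positions and shared 11.9% of the 25-base words of GZMB. Whether reads were shared between them was not tested, so their likeness is uncertain. After regression of both on the log2 TMM factor, r was 0.79. The next genes most like GZMB were RAB6B (0.92) and KNG1 (0.90), both highest in MEC1.

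KLRD1 encodes CD94, which pairs with NKG2 proteins to form receptors of NK cells (12:10226058-10329600). MEC1 had 188 CPM, OCILY7 138 CPM, SUDHL10 114 CPM and HC_1 82.0 CPM, against a median of 29.1 CPM and a lowest level of 3.40 CPM in JEKO1. Its 3 lines above 100 CPM formed the upper end of an even spread and not a separate group. Of the panel genes, 1012 had a larger excess. The description of a gene far above the median in single lines was not met by KLRD1. Among the genes closest to it by likeness, OR10J3 (0.93) and CD163 (0.93) were highest in MEC1 too, and OR10J3 encodes an olfactory receptor. KLRB1, another NK receptor gene 618172 bases away, reached 14.9 CPM in MEC1, below the highest control target there. In MEC1 31 panel genes stood out (1.22%), none of the 7 genes among them.

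Of the 9 measured NK and cytotoxic markers other than GZMB, KLRD1 and NCAM1, 4 stood out in a line. Their sum was highest in MEC1 at 2034 CPM, against a median of 270 CPM, and lowest in SUDHL6 at 54.3 CPM. In MEC1, 7 of the 9 were at 100 CPM or more, among them GNLY, a granule protein, at 250 CPM. The share of all panel genes at that level in MEC1 is not given here, so nothing is read from this count. Markers of other cells were high in MEC1 too. The 11 myeloid markers summed to 1191 CPM there, the highest of all lines, against a median of 374 CPM. Of these, 7 were highest in MEC1, such as CD163 (411 CPM) and S100A8 (212 CPM), beside 22.4% of all panel genes. The T cell sum (1328 CPM) and the stromal and endothelial sum (1213 CPM) of MEC1 both ranked 4. The r of the log2 NK and cytotoxic sum with the log2 TMM factor was 0.74, and the part of library composition in it was not tested. In HBL1 the sum was 650 CPM and in TMD8 371 CPM, ranks 4 and 10.

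NCAM1 encodes CD56, an adhesion molecule of NK cells and neurons (11:112961247-113278436). SUDHL16 had 697 CPM (interval 678 to 716), OCILY8 129 CPM, OCILY7 110 CPM and MEC1 96.7 CPM, against a median of 20.0 CPM and 2.61 CPM in SUDHL4. SUDHL16 was the only line far apart from the rest. Its sum of the 9 NK and cytotoxic markers was 71.7 CPM, rank 32, with 1 of them at 0. Of 6 other neural genes, 2 were above their median in SUDHL16: SYP, a vesicle protein gene, with its highest level of all lines at 223 CPM (median 31.6), and the adhesion gene L1CAM at 41.9 CPM (median 11.6). The other 4 were below it, with CHGA at its lowest level of all lines (0.131 CPM, median 3.77), GFAP at 2.09 CPM (median 8.86), MAPT at 19.1 CPM (median 20.6) and NES at 0 (median 2.76). The integrin genes ITGB3, ITGAV and ITGB2 were also highest in SUDHL16, at 202, 214 and 1221 CPM against medians of 16.4, 52.2 and 131 CPM. The gene most like NCAM1 was the adenosine receptor gene ADORA2B (r 0.89, rho 0.91), with 1007 CPM in SUDHL16 against a median of 48.9 CPM.

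THY1 encodes CD90, a small surface glycoprotein known from thymocytes of mice, fibroblasts and neurons (11:119417378-119424985). SUDHL4 had 464 CPM (interval 450.0 to 478), OCILY18 131 CPM, MEC1 66.8 CPM and RCK8 48.2 CPM, against a median of 10.3 CPM and 1.10 CPM in JEKO1. Each of these was apart from the next, and 18 lines were under 10 CPM. SUDHL4, with a TMM factor of 0.677, had the lowest CD3D, GZMB and NCAM1 of all lines. For each of these genes its interval overlapped that of the next line. SUDHL4 also had the highest MS4A1 (4675 CPM, median 580) and CD22 (9403 CPM, median 1190), a B-cell inhibitory receptor. The 12 other stromal and endothelial markers summed to 322 CPM in SUDHL4, rank 20, against a median of 326 CPM. PECAM1 alone made 229 CPM of this sum, and only 2 of the 12 were above their median. CBL, a ubiquitin ligase gene 103452 bases from THY1, was at 602 CPM in SUDHL4, second to DB, against a median of 175 CPM. In SUDHL4 16 panel genes stood out (0.628%).

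ANXA1 encodes annexin A1, a phospholipid-binding protein of myeloid and T cells that among B-cell tumours marks hairy cell leukaemia (9:73151757-73170393). SUDHL16 had 6068 CPM (interval 6013 to 6124) from 46360 counts, 0.403% of its library. HC_1 had 989 CPM, JVM2 212 CPM, MAVER1 63.3 CPM and MEC1 31.2 CPM. The median line had 3.07 CPM, and FARAGE had 0 counts, which allows up to 0.323 CPM. The first 3 lines were separate from the rest, and 28 lines were under 10 CPM.

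Other annexins did not share this order. ANXA2 ran from 31.0 to 2591 CPM, was at 947 CPM in SUDHL16 against a median of 729 CPM, and was highest in MAVER1. ANXA3 was at 4.06 CPM in SUDHL16, its lowest level, against a median of 31.2 CPM. FPR1, a receptor for annexin A1 and bacterial peptides, was also at its lowest in SUDHL16, 1.05 CPM against a median of 21.6 CPM. The myeloid markers summed to 970 CPM in SUDHL16, rank 3, of which CD68, a lysosomal protein, made 879 CPM, and CD163 and FPR1 were at their lowest there.

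The gene most like ANXA1 was IFI27, an interferon-induced gene (r 0.75, rho 0.49). It had 851 CPM in SUDHL16, 327 CPM in HC_1 and 191 CPM in JVM2, so the same 3 lines led both genes in the same order. EIF2AK2 (0.62), a kinase gene of the interferon response, came next. ALDH1A1, an aldehyde dehydrogenase gene 71315 bases from ANXA1, had 5773 CPM in SUDHL16, and the next line, MEC1, had 306 CPM. Over the 36 lines its r with ANXA1 was 0.42 and its rho 0.03, and without SUDHL16 the r was 0.01. The neighbours were thus high together in SUDHL16, whereas ALDH1A1 was at 132 CPM in HC_1 and 20.9 CPM in JVM2 against a median of 49.2 CPM.

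**Figure D3:**
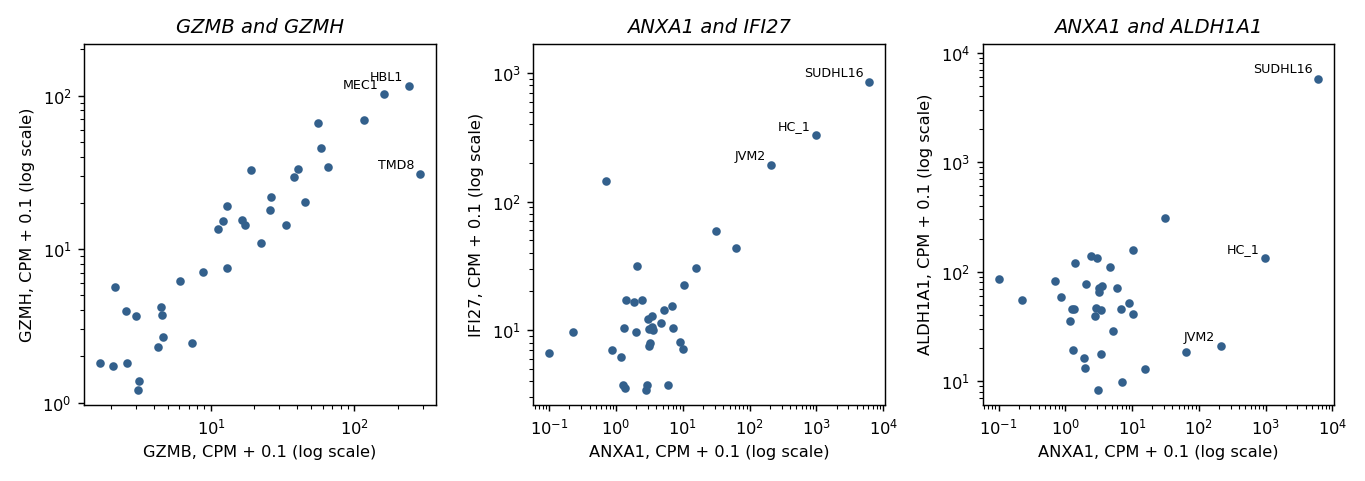
GZMB against GZMH, ANXA1 against IFI27 and ANXA1 against ALDH1A1 in the 36 lines, all as CPM + 0.1 on log axes, with the 3 lines highest in the first gene named. GZMH follows GZMB except in TMD8, IFI27 keeps the order of the top 3 lines, and ALDH1A1 is far above all other lines in SUDHL16.

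SUDHL16, which held both NCAM1 and ANXA1, had the lowest MS4A1 of all lines (24.0 CPM, median 580). Its CD79A (1297 CPM, median 619), BTK (1471 CPM, median 473) and CD22 (3873 CPM, median 1190) were above the median, and PAX5 was at 187 CPM against 200 CPM. ANXA1 and NCAM1 took the first and eleventh place by excess among the genes highest in SUDHL16. PROM1, a surface marker of stem cells, had 3453 CPM there, and NMU, a peptide hormone gene, 648 CPM. In SUDHL16 34 panel genes stood out (1.33%), against a median of 12.5 per line.

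Of 17 listed B-cell identity genes, 6 were measured. Over all lines, each of the 6 reached 100 CPM in at least 31 of the 36 lines. The share of all panel genes that did so is not given here, so nothing is read from this count. None of the 6 stood out in a line by the limits above, beside 10.4% of panel genes. Of the 16 lines with 100 CPM or more of any of the 7 genes, MS4A1 was under 100 CPM in SUDHL16 and OCILY19, and PAX5 in MEC1 (64 CPM), HC_1 (78.5 CPM), SUDHL10 (82.4 CPM) and OCILY7 (97.3 CPM). Such levels were not confined to these 16 lines. Outside them, MS4A1 was under 100 CPM in DOHH2, UPN1 and OCILY1, and PAX5 in MINO. RCK8, also outside them, had the lowest CD22, CD79A and BTK of all lines, with only 3 of the 6 genes at 100 CPM or more. In MEC1 all 6 genes were below their median and summed to 4495 CPM, the lowest of all lines, against a median of 26990 CPM. MEC1 had the lowest PAX5 and the lowest CD74 (3545 CPM, median 22904), with CD79A at 152 CPM (median 619) and BTK, a B-cell kinase gene, at 169 CPM (median 473). KLRD1, highest in MEC1, thus stood beside the lowest B-lineage sum, of which CD74 made 3545 CPM. The r of the log2 B-lineage sum with the log2 TMM factor was -0.66, and MEC1 had the highest factor. The part of library composition in this sum was not tested.

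The moderate levels of 5 of the genes moved with the composition of the library. Pearson r of log2 CPM with the log2 TMM factor was 0.83 for KLRD1, 0.79 for GZMB, 0.70 for CD3D, 0.43 for NCAM1 and 0.37 for THY1. Without the 2 highest lines of each gene it was 0.79, 0.84, 0.88, 0.86 and 0.74 in the same order. DNTT and ANXA1 had an r of -0.13 and -0.25. The median over the 2406 genes that reached 10 CPM in 4 or more lines was -0.00, and 28.5% of them had an r above 0.5. The points share the TMM factor, which also divides the CPM. The part of library composition in these levels was not tested.

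Of the lines at 100 CPM or more, MEC1, OCILY7 and SUDHL10 held 3 of the 7 genes each, SUDHL16 held 2 and 12 lines held 1. The share of all panel genes at 100 CPM or more in each line is not given here, so nothing is read from these counts. MEC1, OCILY7 and SUDHL10 had the 3 highest factors, whereas the factor of SUDHL16 was 0.664. MEC1 had the highest factor of all (1.87, lowest 0.602 in OCILY8), the highest control target, and the highest level of 22.4% of the panel genes. REC1 and U2932, with 1 gene each, also had factors above 1.3. After regression on the log2 factor, OCILY19, SUDHL16 and SUDHL4 stayed highest for DNTT, for NCAM1 and ANXA1, and for THY1. KARPAS1718, with a residual of 6.03 log2 units, passed REC1 (3.08) in CD3D, and HBL1 (3.34) passed TMD8 (3.01) in GZMB. In KLRD1 the highest residual was 1.36 in OCILY8, against a residual SD of 0.80.

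**Figure D4:**
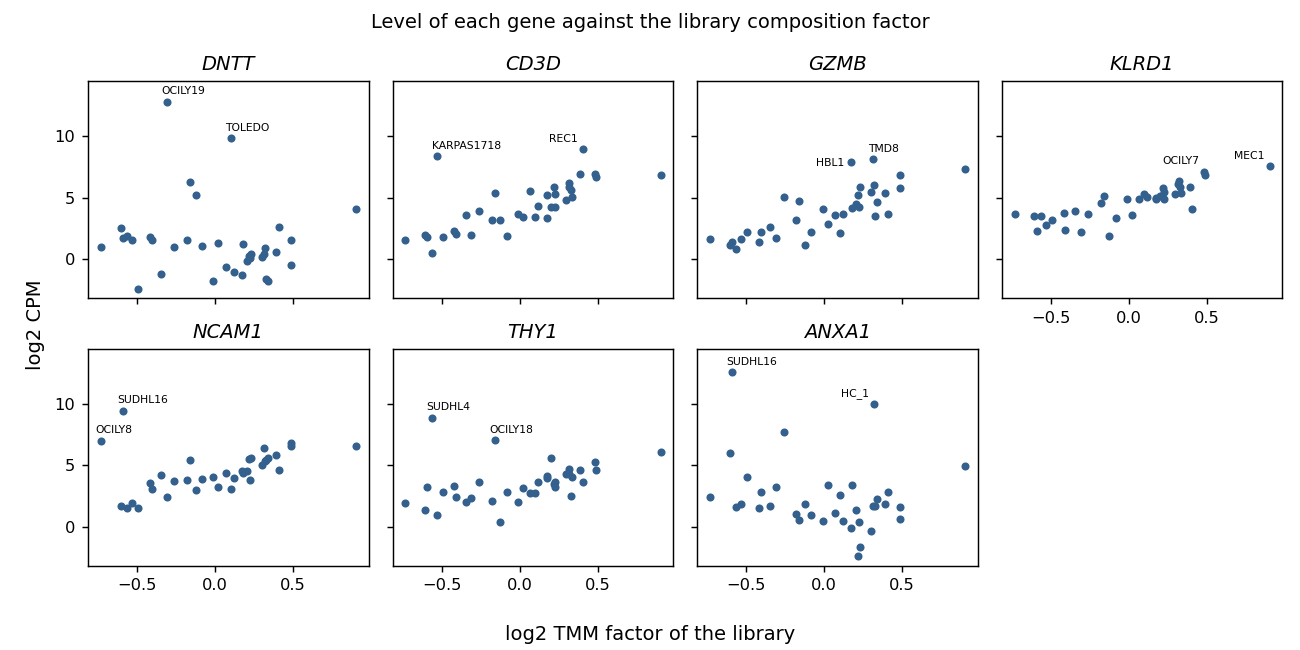
log2 CPM of each gene against the log2 TMM factor of the library, with 1 point per line and the 2 highest lines named. CD3D, GZMB, KLRD1, NCAM1 and THY1 climb with the factor, apart from named lines such as KARPAS1718, SUDHL16 and SUDHL4, and DNTT and ANXA1 do not.

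The same split showed between the genes. Over the 10 pairs among CD3D, GZMB, KLRD1, NCAM1 and THY1 the median r was 0.51, with the highest, 0.81, between GZMB and KLRD1. It was 0.24 after regression on the log2 factor, with 0.45 for GZMB and KLRD1. Over the 11 pairs with DNTT or ANXA1 the median r was -0.19. These correlations describe 36 lines that share scaling and depth.

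**Figure D5:**
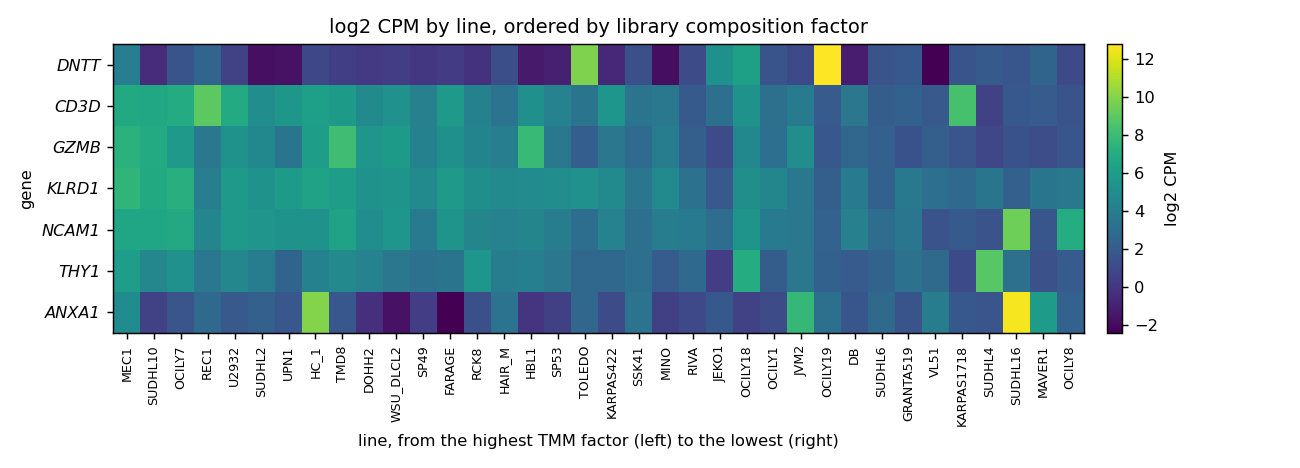
log2 CPM of the 7 genes in the 36 lines, ordered by TMM factor from the highest at the left to the lowest at the right. The middle rows darken to the right, and single bright cells mark OCILY19 and TOLEDO in DNTT, REC1 and KARPAS1718 in CD3D, TMD8 and HBL1 in GZMB, SUDHL16 in NCAM1 and ANXA1, and SUDHL4 in THY1.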

How the data were processed

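Targeted RNA-Seq was deposited for 36 lines, 1 library each, as a table of whole-number counts per target and a table of log2 values made by the authors. From the values, the deposited log2 table is log2(count/factor + 1), with a factor for each library, to within 0.00529. The submitters' processing notes name the build hg38. Aligner, counter and any use of strand: not given in the sources used here. Of 2559 targets, 10 named ER and a number, of unstated identity, were treated as controls and left out of library sizes. They held a median of 2.09e-04% of counts.

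Counts were scaled by TMM in edgeR 4.0.16 (R 4.3.3) to CPM. Log2 CPM used a prior count of 2, likeness used genes that reached 10 CPM in 4 or more lines, and the excess a pseudocount of 0.5 CPM. A count of 0 was given an upper limit of 3 counts, close to the exact 95% limit on the upper side alone. Other counts have limits on both sides, so the limit for a count of 0 is narrower. No fit was made and no test run, since there are no replicates or groups. The functions were tested on simulated data. Coordinates are from GENCODE release 29 on GRCh38, which is hg38, and promoters from RefSeq GRCh38.p14. Genes were named by a rule: the 7 genes, members of marker lists, the 3 genes most like each, and the 5 genes with the largest excess in each line that is highest in a gene. Some, but not all, of the panel genes within 1000000 bases of the 7 genes were named as well. Genes of the Y chromosome and XIST were not named, and results for some other genes are not reported here. The 7 genes and all lists were chosen with earlier results of these data known. Alternatives were scaling by library size, by upper quartiles, by the authors' factors or by DESeq2 1.42.0, limits of 50 and 200 CPM, another pseudocount and libraries left out. Regression of levels on the TMM factor, subtraction of control counts and leaving out libraries with a factor above 1.3 were chosen after seeing the data.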

Additional observations from a re-analysis of the deposited data

Results flagged for a closer look

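The highest control target of MEC1 drew 424 counts (19.3 CPM), a signal in targets that no comparison uses. The next highest was 64 counts in RCK8, and the median over lines was 10 counts. MEC1 had 16.8 CPM of DNTT, below that control, and 31.2 CPM of ANXA1, above it. The part of this background in the levels of MEC1 was not tested. Subtracting the mean control count of each library changed the highest line of none of the 7 genes.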

How the results depend on the processing

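Of 176 values computed under an alternative, 132 moved by less than the set limits and 44 moved. None of the likeness values changed sign. The other values could not reverse, being counts or an excess that is never negative. The highest line of all 7 genes was the same under the 4 other scalings and with control counts subtracted, and of 4 after regression on the log2 TMM factor. Upper-quartile factors shifted the median of all values by 0.12 log2 units and library size by 0.08. All scalings were set to the same geometric mean of library sizes, so the mean shift was fixed in advance. Single libraries shifted by -0.59 to 0.43 log2 units with upper-quartile factors and by -0.73 to 0.90 with library size.

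The number of lines at 100 CPM or more was 6 for CD3D, 4 for GZMB, 3 for KLRD1, 3 for NCAM1 and 2 for THY1. At 50 CPM it was 10 for CD3D, 7 for GZMB, 8 for KLRD1 and 7 for NCAM1. At 200 CPM it was 2 for CD3D, 2 for GZMB, 0 for KLRD1, 1 for NCAM1 and 1 for THY1. Without MEC1 it was 2 for GZMB and 1 for KLRD1. Without the 5 libraries with a factor above 1.3 it was 1 for CD3D, 2 for GZMB and 0 for KLRD1. By library size it was 5 for NCAM1.

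The log2 excess moved with a pseudocount of 5 CPM to 10.01 for DNTT, 4.38 for CD3D, 4.02 for GZMB, 2.50 for KLRD1, 4.81 for NCAM1, 4.94 for THY1 and 9.56 for ANXA1. With upper-quartile factors it was 4.95 for CD3D, 2.86 for KLRD1, 4.34 for NCAM1, 4.93 for THY1 and 10.12 for ANXA1. By library size it was 4.88 for CD3D, 3.49 for KLRD1, 4.38 for NCAM1, 4.85 for THY1 and 10.16 for ANXA1. DESeq2 size factors gave 4.11 for GZMB and 2.25 for KLRD1, and the authors' factors 4.12 and 2.27. For KLRD1 it was 1.95 without MEC1 and 1.60 without the 5 libraries, where NCAM1 had 5.34.

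After regression on the log2 factor the likeness of CD3D and IL20RB was 0.58, of GZMB and GZMH 0.79, and of KLRD1 and OR10J3 0.78. The rho of ANXA1 and IFI27 was 0.49. The cause of these moves was not tested. No paired analysis was possible because each line has 1 library. Depth limits levels under 0.474 CPM, the largest value that 3 counts stand for in a library.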

Other observations

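Among the genes highest in TMD8, C5AR1, a complement receptor gene, had 860 CPM, SPP1, a secreted phosphoprotein gene, 2587 CPM, and CXCL13, a chemokine gene, 209 CPM, and GZMB took the ninth place by excess. In REC1 the transcription factor genes ETV1 and FOXA2 had 1007 and 59.8 CPM. In SUDHL4, MAPK10, a stress kinase gene, had 3392 CPM and DAPL1 2257 CPM, with THY1 in the third place. In OCILY19, SOX7 and CEBPD, transcription factor genes, had 3222 and 5641 CPM. OLR1, a receptor gene 53920 bases from KLRD1, had its highest level in SUDHL16, 430 CPM, and its second in MEC1, 155 CPM.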
